A study of Mus musculus with 17 samples.

Results

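In mouse hearts, 42 autosomal genes had a lower level in every one of 10 hearts of the genotype labelled bsg than in every one of 7 wild-type (WT) hearts. They were selected on these measured values. The level of a gene was its count per 1000000 counts of the library (CPM). A gene was taken when its highest CPM over the bsg hearts was below its lowest CPM over the WT hearts and its mean over the WT hearts was at least 1 CPM. Genes were left out when they started in 4 stretches of the genome, namely chromosome 5 from 60 to 110 Mb, chromosome 2 from 160 Mb, chromosome 4 from 30 to 60 Mb and chromosome 19 from 20 to 60 Mb. Of 41096 genes in the table, 12312 autosomal genes outside these stretches reached the WT level, and the 42 were 0.341% of them. Since the rule compared bsg with WT, differences between the genotypes are given below as a description and with no test.

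The study sequenced total RNA of whole hearts from mice of the background strain C57BL/6 at 4 months of age, after depletion of ribosomal RNA. WT hearts came from 4 females and 3 males and bsg hearts from 5 of each sex, and no treatment or further allele is named for any group. The series title places the bsg mice in work on a genetic cardiomyopathy of males. The design text calls the samples biological replicates but states fewer per group than the bsg groups hold, and within a group some titles carry the same unexplained number. The p-values below therefore set differences between groups against the spread between these samples, which may in part be technical.

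As background, mice called bsg in the muscular dystrophy field lack beta-sarcoglycan, although neither the labels nor the count table spell this out. The sarcoglycans form a membrane complex of heart and skeletal muscle. It belongs to the dystrophin-associated proteins, which together link the contractile cell to the matrix around it. Loss of the complex leaves the muscle membrane fragile, and the heart then loses muscle cells and gains scar tissue. In RNA of a whole heart, fewer cells of a type and less RNA per cell cannot be told apart.

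The table identifies genes by strain-specific IDs of the assembly C57BL_6NJ_v1 and pairs none of them with a name, and 0 of the 41096 IDs matched the name tables used here. What the 42 genes do, whether the gene removed in bsg mice is among those left out, and the levels of cell type markers were therefore not determined. The 42 genes are numbered below from gene 1, with the lowest ratio of mean bsg to mean WT CPM, to gene 42, with the highest, and are placed by their coordinates on that assembly.

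Library totals lay between 13886399 and 17554850 counts with a median of 15736903. WT female replicate 2 and bsg female replicate 2 stood apart. They had a count above 0 for 20118 and 20589 genes, against 18597 to 19438 in the other 15 libraries. Their TMM factors, which rescale library totals by the bulk of the genes, were 6.88% and 6.05% above 1, while those of the others lay between -3.34% and 1.78%. With column totals alone, as the rule used them, the median log2 ratio of a gene's CPM to its WT mean was 0.07 and 0.05 in these 2 libraries and between -0.06 and 0.01 in the other 15.

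The difference between the genotypes was small for most of the 42 genes and large for a few. The median log2 ratio of mean bsg to mean WT CPM was -0.33, with a range from -1.74 to -0.12, while the median over all 12312 genes was -0.01. WT exceeded bsg at least 2-fold in 3 genes, from 1.5-fold to under 2-fold in 5, and by less than 1.2-fold in 13. The lowest WT heart exceeded the highest bsg heart by at least 10% in 7 genes and by less than 2% in 21. In 40 of the 42 genes the difference between the means was larger than the SD of WT and the SD of bsg added together. Genes whose groups do not overlap tend to meet this, so the count follows largely from the rule. It was not taken over all 12312 genes.

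**Figure D1:**
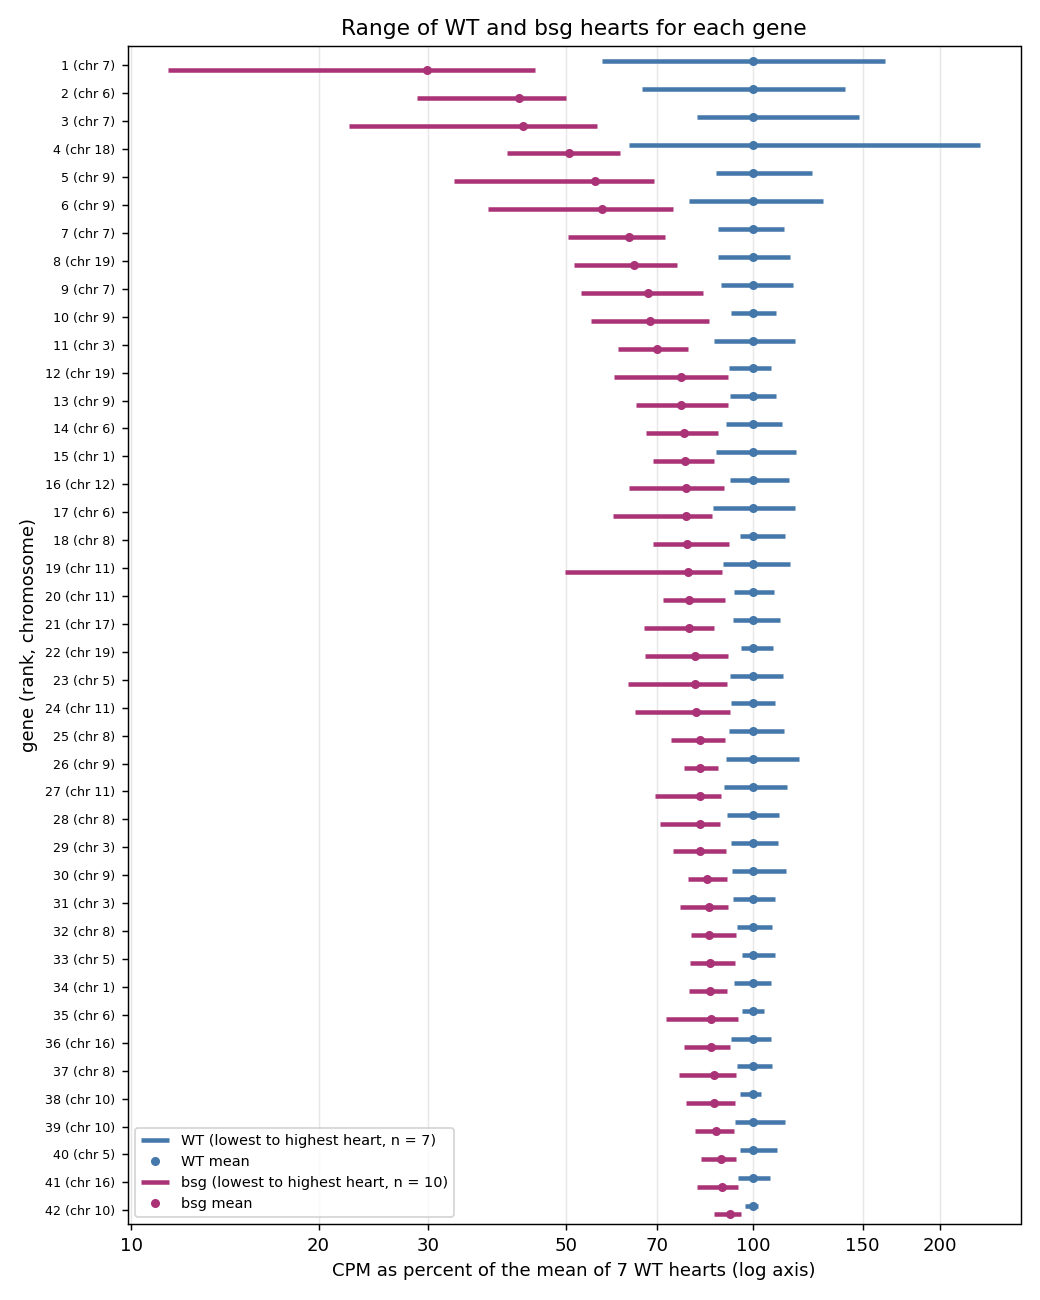
Range of WT and bsg hearts for each of the 42 genes, as percent of the mean of the 7 WT hearts (x axis, log scale). Bars run from the lowest to the highest heart and points are means; no pair of bars overlaps, but in 21 genes the bars are less than 2% apart.

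The largest difference was that of gene 1, MGP_C57BL6NJ_G0032788, which lies on the plus strand of chromosome 7 from 54612203 to 54707919 and has 22 annotated exons. Its level was 8.55, 5.89, 16.1 and 5.63 CPM in WT females 1 to 4 and 10.997, 13.1 and 8.67 CPM in WT males 1 to 3. It was 1.13, 2.16, 2.90, 3.18 and 1.53 CPM in bsg females 1 to 5 and 3.09, 3.46, 4.06, 3.47 and 4.39 CPM in bsg males 1 to 5. The bsg hearts were all below the WT hearts, WT female 3 stood highest, and 4 of the 5 bsg females lay below every bsg male. The mean was 9.84 ± 3.80 CPM in WT (SD, n = 7) and 2.94 ± 1.048 CPM in bsg (SD, n = 10), which is 3.35-fold lower in bsg, and 3.00-fold lower without WT female 3.

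Gene 2, MGP_C57BL6NJ_G0031083, lies on the plus strand of chromosome 6 from 41820613 to 41849684. It stood at 7.99, 14.6, 6.88 and 7.05 CPM in WT females 1 to 4 and at 11.3, 11.8 and 13.1 CPM in WT males 1 to 3. In bsg it was 4.26, 4.56, 4.08, 4.13 and 2.99 CPM in females 1 to 5 and 4.94, 5.20, 5.11, 4.55 and 3.89 CPM in males 1 to 5. The WT males were all above 3 of the 4 WT females, whereas the bsg hearts lay close together. The means were 10.4 ± 3.08 CPM in WT (SD, n = 7) and 4.37 ± 0.658 CPM in bsg (SD, n = 10), a 2.38-fold difference.

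Gene 3, on the minus strand of chromosome 7 from 48826475 to 48869628, starts several megabases before gene 1. It was at 3.08, 3.15, 4.52 and 2.59 CPM in WT females 1 to 4 and at 2.48, 3.06 and 2.52 CPM in WT males 1 to 3. In bsg females 1 to 5 it was at 1.69, 0.684, 1.38, 1.72 and 1.46 CPM, and in bsg males 1 to 5 at 0.952, 1.36, 1.48, 1.33 and 1.01 CPM. The sexes overlapped in both genotypes, and the lowest WT heart was 1.45-fold above the highest bsg heart, the widest gap among the 42 genes. The means were 3.06 ± 0.708 CPM in WT (n = 7) and 1.31 ± 0.330 CPM in bsg (n = 10), a 2.34-fold difference that rests on 37 to 71 counts per WT heart and 12 to 27 per bsg heart.

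**Figure D2:**
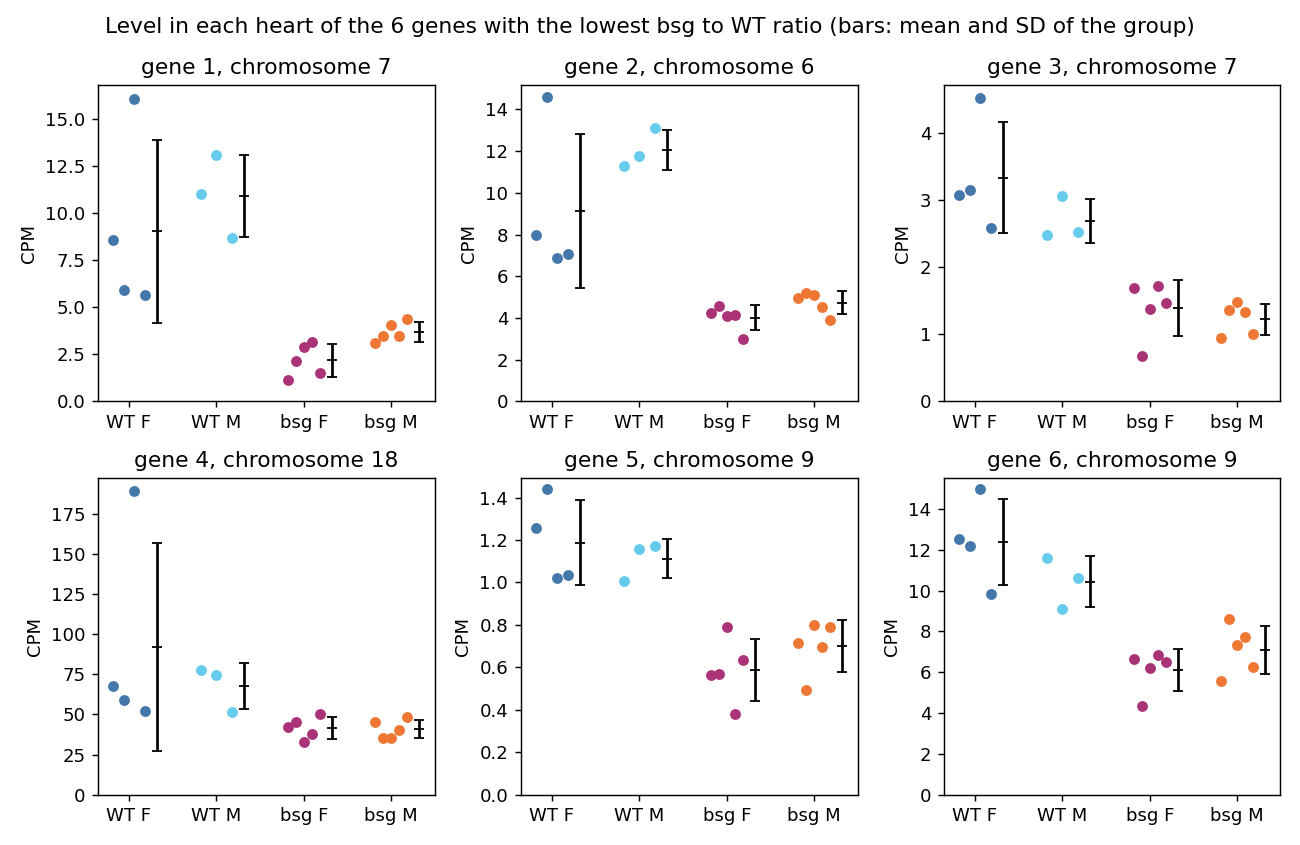
CPM in each heart (y axis, from 0) of the 6 genes with the lowest bsg to WT ratio, by genotype and sex (F females, M males; 4 WT females, 3 WT males, 5 bsg females, 5 bsg males). Points are hearts and bars show the mean and SD of the group; WT female 3 stands at 189 CPM of gene 4, while the other WT hearts lie between 51.4 and 77.6 CPM.

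Gene 4, on the plus strand of chromosome 18 from 44569946 to 44594541, had a mean of 81.6 ± 48.4 CPM in WT (SD, n = 7) and 41.2 ± 5.84 CPM in bsg (SD, n = 10). Its WT values were 67.7, 58.7, 189 and 52.3 CPM in females 1 to 4 and 77.6, 74.3 and 51.4 CPM in males 1 to 3. The bsg hearts lay between 32.7 and 49.9 CPM with a median of 41.0. WT female 3 carried much of the difference: with it WT was 1.98-fold above bsg, and without it 1.55-fold. In the other 41 genes, leaving out any 1 heart moved this fold by no more than 1.2 times. WT female 3 was also the highest WT heart for genes 1, 3 and 6. Without it their folds were 3.00, 2.15 and 1.66. For gene 2 it was the lowest WT heart.

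Gene 5, on the plus strand of chromosome 9 from 119975737 to 119994599, was the lowest expressed, with 15 to 21 counts per WT heart and 6 to 13 per bsg heart. Its mean was 1.16 ± 0.156 CPM in WT and 0.644 ± 0.141 CPM in bsg (SD, n = 7 and 10), a 1.79-fold difference. Gene 6, also on chromosome 9 (minus strand, 72003254 to 72061485), ranged from 9.12 to 14.98 CPM in WT with a median of 11.6, and from 4.33 to 8.60 CPM in bsg with a median of 6.56. The lowest WT heart of gene 6 was 1.06-fold above the highest bsg heart, so the groups were apart but close. Mean WT was 1.75-fold above mean bsg for gene 6.

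Genes 7 to 11 were 1.58-fold to 1.43-fold lower in bsg. Gene 7, on the minus strand of chromosome 7 from 107694493 to 107712085, had 6.21 to 7.93 CPM in WT (median 7.09) and 3.57 to 5.11 CPM in bsg (median 4.43). Gene 8, on the plus strand of chromosome 19 from 4478686 to 4486592, had 8.03 to 10.5 CPM in WT (median 8.93) and 4.71 to 6.88 CPM in bsg (median 5.92). Both had narrow groups with a clear space between them, 1.21-fold in gene 7 and 1.17-fold in gene 8.

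Gene 9, on the minus strand of chromosome 7 from 153092585 to 153108273, had 12.6 to 16.5 CPM in WT (median 13.9) and 7.52 to 11.8 CPM in bsg (median 9.61). Gene 10, on the plus strand of chromosome 9 from 106980330 to 107021783, had 32.5 to 38.4 CPM in WT (median 35.2) and 19.3 to 29.9 CPM in bsg (median 24.2). Gene 11, a gene of 2 exons on the plus strand of chromosome 3 from 62230383 to 62236570, had 48.3 to 65.0 CPM in WT (median 54.8) and 33.8 to 43.9 CPM in bsg (median 38.4). Their groups were 1.07-fold, 1.08-fold and 1.102-fold apart, so the spread among hearts filled most of the difference.

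The 10 genes with the most counts in WT had smaller differences, with the exception of gene 4. The most abundant was gene 35, on the minus strand of chromosome 6 from 135472608 to 135481331, with 514.8 to 559 CPM in WT (median 533.5) and 388.7 to 508.1 CPM in bsg (median 465.9). Its mean was 537 ± 17.7 CPM in WT and 459 ± 37.4 CPM in bsg (SD, n = 7 and 10), which is 1.17-fold lower in bsg. Per kb of exonic length its mean WT level was 208.2 CPM, against 92.0 for gene 27, 42.7 for gene 40, 36.9 for gene 4 and 31.4 for gene 32, so on this scale it led the 10 as well.

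Gene 33 (chromosome 5, minus strand, 36853028 to 36924406) had 204.1 ± 10.01 CPM in WT and 174 ± 9.997 CPM in bsg. Gene 24 (chromosome 11, minus strand, 77433552 to 77656415) had 185 ± 12.3 and 149 ± 15.5 CPM, and gene 40 (chromosome 5, minus strand, 37221477 to 37244545) had 162 ± 8.03 and 144 ± 7.49 CPM. Gene 27 (chromosome 11, minus strand, 1099097 to 1106183) had 160 ± 12.1 CPM in WT and 131 ± 10.7 CPM in bsg. Their folds lay between 1.13 and 1.24. By column totals their groups were separated by 1.01-fold to 1.02-fold, but under each of the other scalings described below they overlapped.

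Gene 30 (chromosome 9, plus strand, 19095160 to 19147194) had 117 ± 8.27 CPM in WT and 98.7 ± 5.36 CPM in bsg. Gene 32 (chromosome 8, minus strand, 100067761 to 100104270) had 113 ± 5.57 and 95.9 ± 6.63 CPM, and gene 26 (chromosome 9, minus strand, 98359038 to 98379244) had 84.6 ± 8.32 and 69.5 ± 3.38 CPM. Gene 28 (chromosome 8, minus strand, 118414239 to 118420828) had 80.5 ± 5.86 and 66.2 ± 5.06 CPM. All 4 errors are SDs over 7 WT and 10 bsg hearts, and the folds were between 1.18 and 1.22.

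At the edge of the rule, genes 41, 17 and 19 were the closest to overlap. In gene 41 (chromosome 16, 66190347 to 66209795) the lowest WT heart and the highest bsg heart were both at 41.5 CPM to 3 digits, in gene 17 (chromosome 6, 90155163 to 90160029) they were at 11.95 and 11.94 CPM, and in gene 19 (chromosome 11, 62783028 to 62793966) at 6.04 and 6.03 CPM. Just outside stood a gene on chromosome 6 (5275449 to 5302492), whose lowest WT heart was at 29.7 CPM and highest bsg heart at 29.8 CPM. The next were a gene on chromosome 4 (121634327 to 121719811) with 23.1 and 23.2 CPM, and a gene on chromosome 11 (3142571 to 3242742), where both were at 10.9 CPM. The last of these was 1.48-fold lower in bsg by its mean, a larger difference than that of 34 genes inside the rule.

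In each heart the typical level of the 42 genes was taken as the median, over genes, of the level as percent of the WT mean. It lay between 95.6% and 102.5% in the WT hearts and between 73.1% and 84.5% in the bsg hearts. Among the bsg females it was 78.3%, 73.1%, 79.6%, 82.6% and 77.3% in replicates 1 to 5, and among the bsg males 79.9%, 84.5%, 83.2%, 82.8% and 79.5%. The lowest value was that of bsg female replicate 2, one of the libraries that stood apart, while the typical gene was high in it. The part of this library's composition in the value was not tested. WT female 4 was the lowest WT heart for 12 of the 42 genes, more than any other, and bsg male 3 was the highest bsg heart for 9. Bsg females 1 and 2 were the highest bsg heart for 0 genes.

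**Figure D3:**
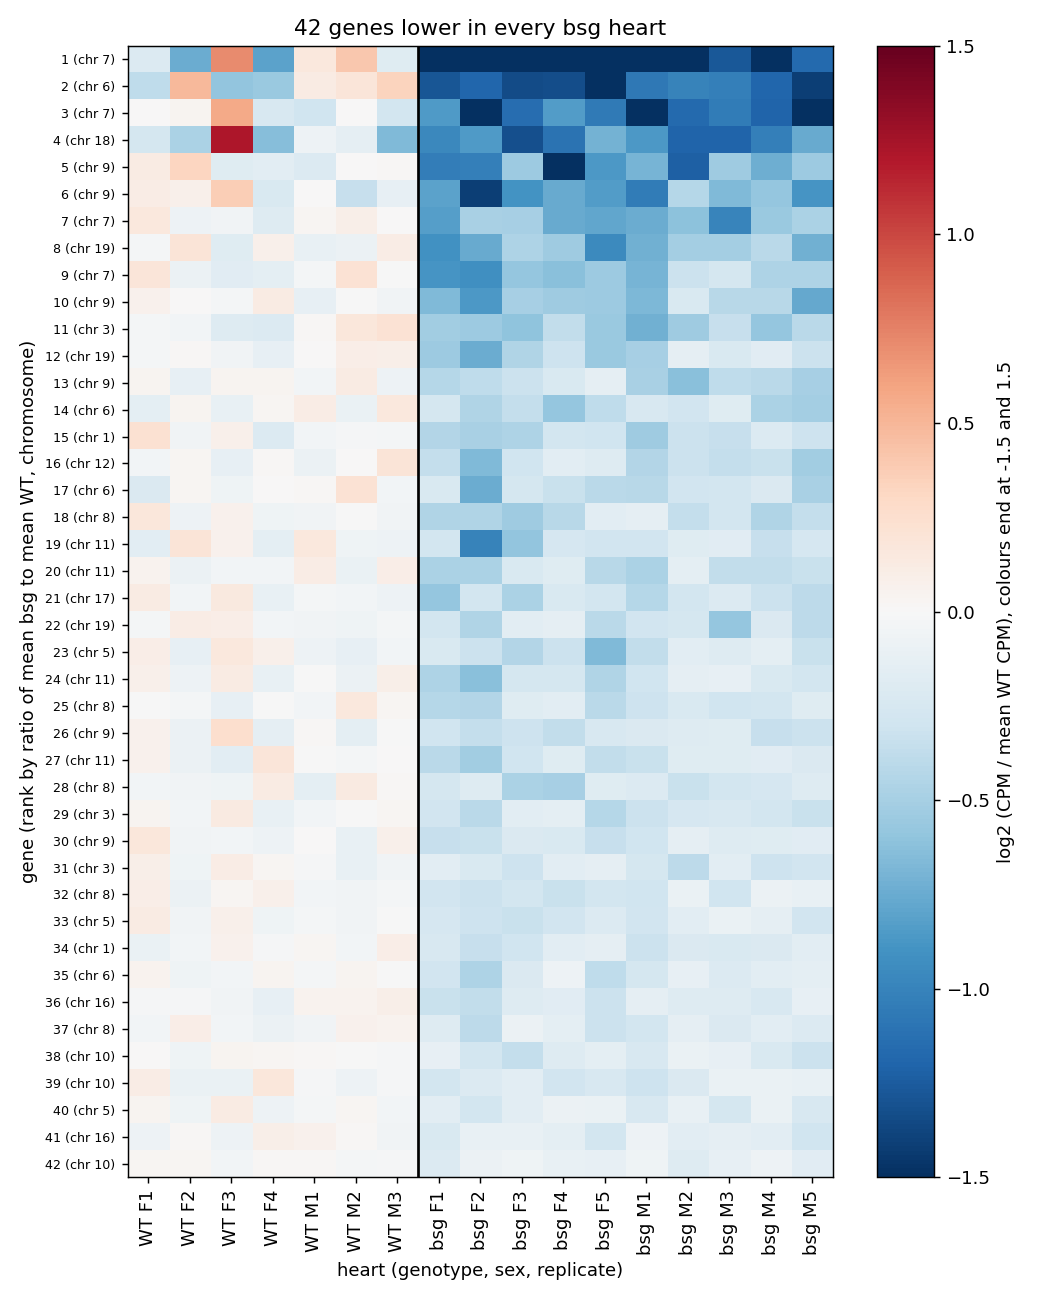
Level of each of the 42 genes (rows, by rank) in each of the 17 hearts (columns, F females, M males), as log2 of CPM over the mean WT CPM; colours end at -1.5 and 1.5. The vertical line separates WT from bsg; the first rows are dark in all bsg hearts, and most rows from gene 12 on are pale, with bsg female 2 the darkest column by its median of 73.1% of the WT mean.

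Gene 1 varied among bsg hearts most like gene 30, with a Spearman rho of 0.88 over the 10 bsg hearts, followed by gene 12 (rho 0.77) and gene 27 (rho 0.76). Over the 7 WT hearts it was most like gene 40 (rho 0.79), gene 4 (rho 0.75) and gene 21 (rho 0.68). The lists share no gene. These values describe the hearts at hand, which share library depth and scaling, and carry no test.

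The sex of the mice was not used by the rule, so males and females were compared with the edgeR quasi-likelihood test fitted to all 15013 genes with enough counts, which included all 42. In WT hearts, 0 of the 42 genes were called at a Benjamini-Hochberg adjusted p under 0.05, where 9 of all genes (0.0599%) were called. Unadjusted p-values under 0.05 were found for 3 of the 42 (7.14%) and for 5.4% of all genes. DESeq2 and limma-voom also called 0 of the 42, where they called 39 and 11 of all 15013 genes. Gene 11 had the smallest p: WT females (n = 4) stood at 51.6 ± 3.52 CPM (mean and SD) and WT males (n = 3) at 61.4 ± 4.38 CPM, with all 3 males above all 4 females. The log2 difference was 0.27 with an SE of 0.09 and an edgeR adjusted p of 0.782. Gene 36 (chromosome 16, plus strand, 352608 to 384634) had 54.6 ± 1.88 CPM in WT females and 59.1 ± 1.05 CPM in WT males, also without overlap, and a log2 difference of 0.14 with an SE of 0.06 (edgeR adjusted p of 0.905). Males were the higher sex by the fit in 25 of the 42 genes (59.5%, against 48.2% of all genes), with a median log2 fold change of 0.01. That count was 18 of 42 without WT female replicate 2, with a median of -0.03.

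In bsg hearts, 0 of the 42 genes were called between the sexes, against 14 of all genes (0.0933%), but males were the higher sex in 37 of the 42 (88.1%). Over all genes males were higher in 47%. Over the 42 genes the median log2 fold change, males over females, was 0.10, and it was -0.01 for all genes, with a range from -0.14 in gene 13 to 0.80 in gene 1. Unadjusted p-values under 0.05 were found for 9 of the 42 (21.4%) and for 12.5% of all genes. DESeq2 and limma-voom called 0 of the 42, where they called 125 and 14 of all 15013 genes. The bsg females thus lay lower than the bsg males in most of the 42 genes, but no single gene passed the test. The 42 genes were measured in the same hearts, so they are not separate results. The rule also used the highest bsg value of each gene, so the count is a description. Without bsg female replicate 2 the count was 34 of 42 with a median of 0.08, and with upper-quartile scaling it was 35.

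Gene 12 (chromosome 19, minus strand, 60717011 to 60787680) had the smallest p in bsg. It stood at 42.03, 36.8, 44.8, 49.8 and 41.97 CPM in bsg females 1 to 5 and at 43.6, 56.2, 52.4, 54.6 and 49.4 CPM in bsg males 1 to 5. The sexes overlapped, with bsg male 1 among the females and bsg female 4 among the males. The log2 difference was 0.29, with an SE of 0.08 and an edgeR adjusted p of 0.229. Gene 24 followed with 139 ± 14.6 CPM in bsg females and 159 ± 8.89 CPM in bsg males (SD, n = 5 each), which is a log2 difference of 0.23 with an SE of 0.08 (edgeR adjusted p of 0.294). Gene 1 had the largest difference between bsg males and females, 0.80 (SE 0.31, adjusted p = 0.323 by edgeR).

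**Figure D4:**
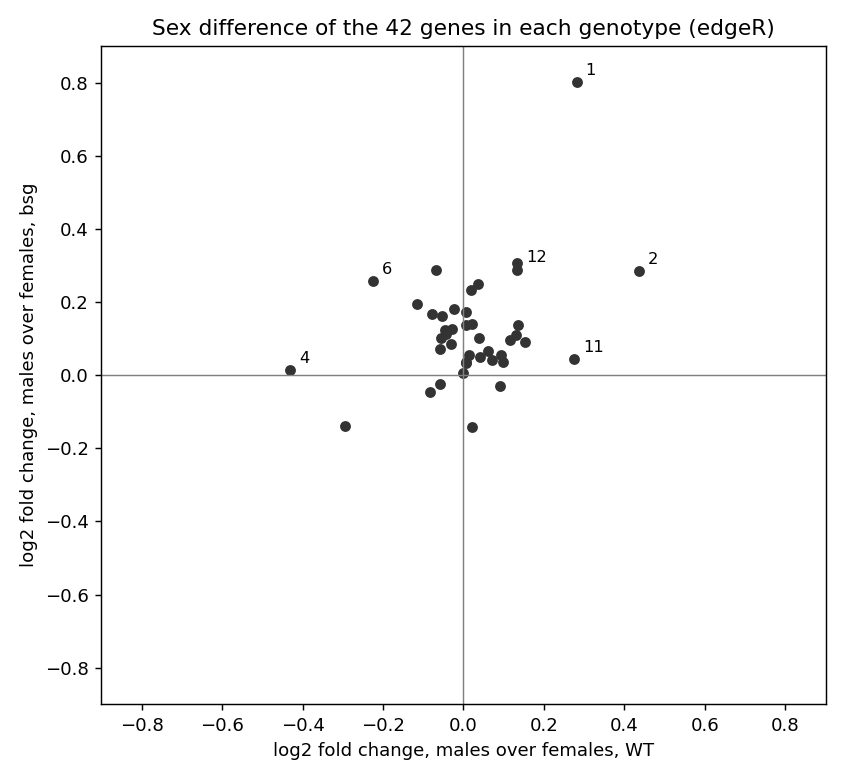
Log2 fold change of males over females for each of the 42 genes in WT (x axis) and in bsg (y axis), from edgeR; numbers mark 6 genes. In bsg 37 points (88.1%) lie above 0, against 47% of all tested genes, and in WT 25 (59.5%) lie right of 0, against 48.2%. None of the 42 was called in either genotype, where 0.0933% of all tested genes were called in bsg and 0.0599% in WT.

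Whether the difference between bsg and WT depended on sex was tested as the interaction. It was called for 0 of the 42 genes and for 0 of all 15013 genes (0%) by edgeR. DESeq2 and limma-voom likewise called 0 of the 42 and 0 of all genes. Unadjusted p-values under 0.05 were found for 2 of the 42 (4.76%) and for 5.17% of all genes. The interaction was above 0, which means a smaller difference between bsg and WT in males than in females, in 32 of the 42 genes (76.2%, against 48.9% of all genes), with a median of 0.12. Without bsg female replicate 2 it was above 0 in 26 and without WT female replicate 2 in 35. The values that the rule used enter the interaction, and the 42 genes share the same hearts, so these counts are a description. Gene 32 had the smallest p. It went from 115 ± 6.49 CPM in WT females to 91.9 ± 1.55 CPM in bsg females, and from 110 ± 1.29 CPM in WT males to 99.9 ± 7.48 CPM in bsg males, an interaction of 0.21 on the log2 scale (SE 0.09, adjusted p = 0.888 by edgeR). Gene 23 (chromosome 5, plus strand, 53916286 to 53976426) followed with 0.31 (SE 0.14, adjusted p = 0.888 by edgeR).

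The same fit called 4 of the 42 genes lower in bsg in males, where 0.253% of all genes were, and 25 of the 42 in females, where 0.799% were. The rule used this contrast, so nothing is read from these counts. The median log2 fold change of the 42 genes was -0.26 in males and -0.34 in females.

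The rule used column totals, and many of the 42 genes no longer separated the genotypes when the totals were rescaled. With TMM scaling 20 of the 42 still had every bsg heart below every WT heart, with RLE scaling (the DESeq2 size factors) 19, and with upper-quartile scaling 15. Only 13 did so under all 4 scalings, 10 of them among genes 1 to 11, and the other 3 were genes 16, 22 and 37. Of genes 1 to 11 the exception was gene 9, whose lowest WT heart stood at 0.994 of its highest bsg heart with upper-quartile scaling. A total of 20 genes were separate by column totals only. Among the 10 genes with the most counts in WT, these were genes 24, 26, 27, 30, 32, 33, 35 and 40. Gene 4 stayed separate under all 4 scalings, and gene 28 overlapped with upper-quartile scaling only. The size of the difference moved little, and the median log2 ratio of the 42 genes was -0.31 under TMM, -0.32 under RLE and -0.31 under upper-quartile scaling, and -0.31 without the WT female, WT male and bsg female replicates 2.

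**Figure D5:**
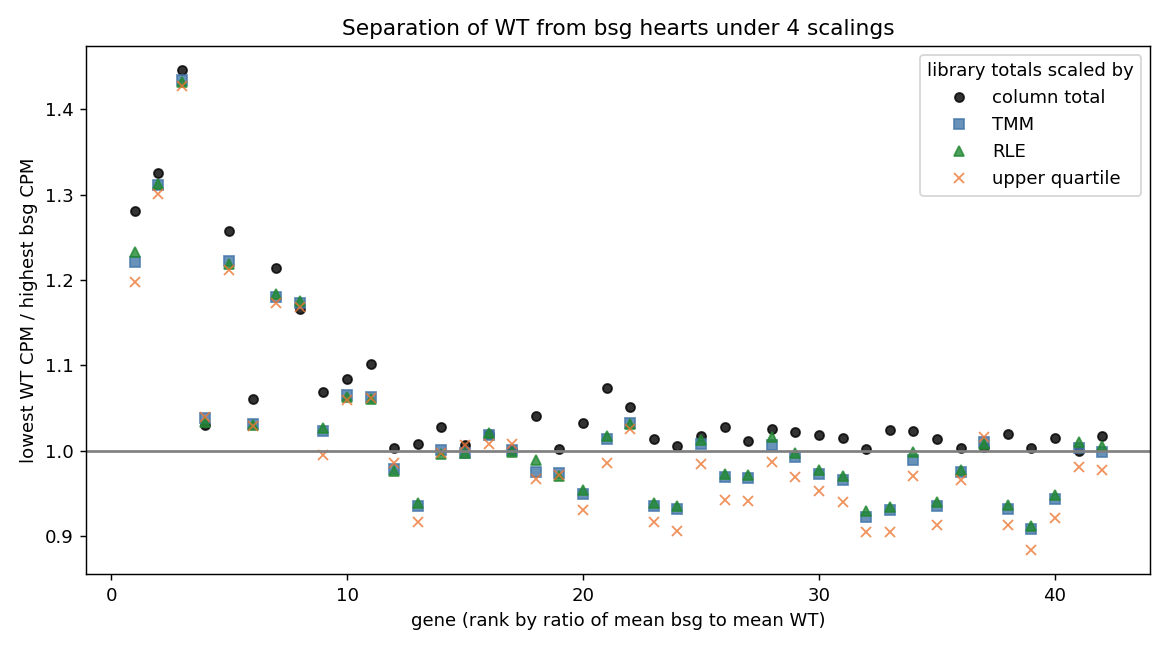
Ratio of the lowest WT to the highest bsg heart (y axis) for each of the 42 genes (x axis, rank by the ratio of means) with CPM from column totals and from totals rescaled by TMM, RLE or upper quartile. Values above the line at 1 mean that the groups do not overlap; 13 genes stay above it under all 4 scalings, and most from gene 12 on do not.

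The same rule turned round, with every bsg heart above every WT heart and a mean of at least 1 CPM in bsg, took 31 of 12335 genes (0.251%). In the 4 stretches left out of the rule, 24 of 807 genes (2.97%) were lower in every bsg heart. The 42 genes lay on 14 of the 19 autosomes. Chromosome 9 held 6 of 766 genes (0.783%) and chromosome 8 held 5 of 722 (0.693%). Chromosomes 2, 4, 13, 14 and 15 held 0 of 804, 698, 473, 462 and 532 genes, and over all autosomes the share was 0.341%. Chromosome 19 held 3 of 257 genes, the highest share (1.17%).

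The genes are called unlinked because those stretches were set aside, yet some lay near a stretch or near one another. Gene 12 starts 0.717 Mb beyond the end of the stretch of chromosome 19, and gene 23 starts 6.08 Mb before the stretch of chromosome 5. The others on those chromosomes were at least 15.4 Mb away. There were 4 pairs with starts within 1 Mb. Genes 8 and 22 (gene 22 at 4642630 to 4650909, plus strand) start 164 kb apart on chromosome 19, and genes 33 and 40 start 368 kb apart on chromosome 5. On chromosome 8, gene 25 (99757000 to 99782985, minus strand) and gene 32 start 311 kb apart.

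The last pair overlaps. Gene 37 (chromosome 8, plus strand, 118318812 to 118416484) and gene 28 on the minus strand share 2246 bp, so they are read towards each other and overlap where they end. Gene 37 had 73.8 ± 3.70 CPM in WT and 63.8 ± 3.99 CPM in bsg (SD, n = 7 and 10), 1.16-fold lower, and gene 28 was 1.22-fold lower. The counting used strand, which assigns reads of the 2 genes apart.

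Genes beside the 42 that the rule had not chosen were examined next. With the 42 genes themselves passed over, the nearest other tested gene on each side gave 82 different genes at a median distance of 18.4 kb. These neighbours were as often lower in bsg as tested autosomal genes at large: 45 of the 82 (54.9%) had a lower mean in bsg, against 53.6% of 14513, and the median log2 ratio was -0.01 in both. In females 1 of the 82 (1.22%) was called lower in bsg and 0 higher, where 0.799% of all tested genes were called lower. In males 0 were called either way, where 0.253% of all tested genes were called lower. With shares this low, nothing is read from these counts. The one called lies on the minus strand of chromosome 16 from 338519 to 364675 and overlaps the start of gene 36 on the other strand, with a log2 fold change of -0.40 in females (adjusted p = 0.0112 by edgeR).

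In all, 17 of the 42 genes are overlapped by another annotated gene, 12 of them by a gene with enough counts to be tested. In all 12, every tested gene that overlapped lay on the opposite strand. On the same strand 5 of the 17 are overlapped, in each case by genes with too few counts to be tested. How reads on both genes were counted there is not given in the sources used here, so the levels of these 5 are less certain.

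The 42 genes were more highly expressed than the 12312 genes they were drawn from. Their median WT level was 50.6 CPM against 21.6 CPM, and 9.88 against 5.53 CPM per kb of exonic length. A level of at least 10 CPM in WT was reached by 35 of the 42 (83.3%) and by 68.1% of all. The median exonic length was 4273 bp against 3814 bp, and the median number of exons 10 against 9. None of the 42 had a single exon, while 597 of the 12312 (4.85%) did. The plus strand held 17 of the 42 (40.5%) and 50.2% of all. The part that expression level played in meeting the rule was not tested.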

How the data were processed

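The samples were 17 whole mouse hearts, whose total RNA was sequenced. The deposited table holds raw counts per gene, not normalized. Per the file headers they were made with featureCounts 1.6.2, a minimum mapping quality of 10, strand setting 2 and Ensembl release 109 on C57BL_6NJ_v1, whereas the submitters' processing notes name GRCm39; coordinates are those of the file. The sources used here do not give the aligner.

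The 42 genes, the comparisons and the alternatives were chosen with earlier results of these data known. CPM was the count times 1000000 over the column total. Groups were those of the labels. For tests, genes were filtered with edgeR's filterByExpr (minimum count 10, minimum total 15), which left 15013, scaled by TMM and fitted with 1 mean per genotype and sex by quasi-likelihood (edgeR 4.0.16, R 4.3.3). Tests were two-sided, with Benjamini-Hochberg adjustment over all tested genes and a call at an adjusted p under 0.05. The SE of a log2 fold change was derived from the test statistic. Scripts were tested on simulated counts. Neighbours were examined after the data had been seen.

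Genes described with values were the 10 with the lowest bsg to WT ratio (and gene 11, by the sex comparison in WT), the 10 with the highest WT level, those starting within 200 kb of another, those with the 2 smallest p-values in each sex comparison and the 3 nearest the rule's edge on either side. Pairs up to 1 Mb apart, gene 24 in bsg and other genes singled out for 1 value were named after their values were seen. IDs are printed for 2 genes. Gene lists and cell type markers hold symbols and could not be applied.

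Depth was 13886399 to 17554850 counts per library, and no 2 libraries agreed within sampling noise (the closest pair had a mean chi-square of 5.29 per gene). No batch is given in the labels. Alternatives were other scalings and filters, DESeq2 1.42.0, limma 3.58.1 with voom weights, fits of the compared groups alone, leaving out libraries and summing libraries that share a title number. The folds of genes 1 and 4 without 1 library and the counts of genes higher in males under each alternative were chosen after seeing the data.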

Additional observations from a re-analysis of the deposited data

Results flagged for a closer look

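For each of the 42 genes, the groups of WT females, bsg females and bsg males were searched for a heart that stood far from the others of its group by Dixon's criterion. Of the 126 groups of values, 7 held such a heart, and chance gives about 1 in 20.

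Among WT females, gene 2 was at 14.6 CPM in replicate 2 and between 6.88 and 7.99 CPM in the others. Gene 4 was at 189 CPM in WT female replicate 3 and between 52.3 and 67.7 CPM in the others. Gene 13 was low in WT female replicate 2, at 5.96 CPM against 6.66 to 6.69 CPM. Gene 28 was at 87.9 CPM in WT female replicate 4 and at 76.7 to 78.0 CPM in the others, and gene 30 at 132 CPM in WT female replicate 1 and 111 to 114 CPM in the others.

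In bsg, gene 6 was low in female replicate 2, at 4.33 CPM against 6.19 to 6.86 CPM in the other females. Gene 27 was low in bsg male replicate 1, at 126 CPM against 138 to 142 CPM in the other males.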

How the results depend on the processing

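The number of genes lower in every bsg heart, 42, became 29 with TMM scaling, 24 with RLE and 22 with upper-quartile scaling, and 66 with no stretch left out. It was 43 to 74 with 1 library left out, with 74 without WT female replicate 3 and 64 without WT female replicate 4, and 98 without the WT female, WT male and bsg female replicates 2. Summing libraries that share a title number, which left 5 WT and 5 bsg sums, gave 326. With fewer values per group the rule is easier to meet. Leaving out or summing libraries cannot make groups overlap that were apart. That the 42 remained members in each of these settings with fewer libraries was therefore fixed in advance. A minimum WT level of 0.5 CPM gave 42 genes and one of 5 CPM gave 40. The median log2 ratio of the 42 stayed between -0.34 and -0.30 in the settings run. No gene of the 42 was called in a sex comparison or the interaction in any setting run. Few of all genes were called there, at most 125 of 15013 (DESeq2, sexes in bsg). For bsg against WT, which the rule used, calls in males (4) were 13 by DESeq2, 9 in the 2 groups alone, 2 with summed libraries and 2 to 4 with 1 library left out, with 2 without any 1 of the WT males. Calls in females (25) were 33 by DESeq2, 9 in the 2 groups alone, 6 with summed libraries and 10 to 28 with 1 library left out, with 10 and 12 without WT female replicates 1 and 3 and 13 and 15 without bsg female replicates 1 and 3. Calls lower in bsg over all tested genes changed with the setting as well. In males they were 38 of 15013 in the main fit, 100 of 15013 by DESeq2, 68 of 14396 in the 2 groups alone and 18 of 15725 with summed libraries. In females they were 120 of 15013, 269 of 15013, 47 of 14374 and 24 of 15725 in the same order. With 1 library left out they were 19 to 32 in males and 56 to 188 in females. The cause of these changes in calls was not tested. The alternatives for single genes covered genes 1 to 10 for bsg against WT and the 2 with the smallest p in each other comparison. Of these alternatives, 429 kept direction and side of the threshold, 31 lost it, 10 gained it and 0 reversed. Most were of bsg against WT, where the rule had largely fixed the direction, so nothing is read from the 0. No paired analysis was possible because the replicate numbers only follow the order of the samples and the title numbers are not shared between genotypes. The low counts of genes 3 and 5 limit what can be said of single hearts.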
